A study of Mus musculus with 12 samples.

Results

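Of the 18784 genes with a name on the arrays, 38 are Hox genes of the 4 clusters, 10 in cluster A, 10 in cluster B, 9 in cluster C and 9 in cluster D. They were chosen by symbol: each is a gene whose name gives its cluster letter and its paralogue number, and each was read by 1 probe set. Of these members 7 belong to paralogue groups 1 to 3 (called anterior below), 15 to groups 4 to 8 (central) and 16 to groups 9 to 13 (posterior).

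RNA came from mouse E14TG2a.4 embryonic stem cells (ESC), a feeder-independent line widely used for differentiation, and from neural progenitors derived from them (NPC). Each cell state was measured with a scrambled control shRNA (the LKOScr construct) and with an shRNA against Jarid1b (the LKOJarid1b construct), on 3 arrays per group and 12 in all. Jarid1b, now named Kdm5b, is a demethylase of histone H3 lysine 4. All 4 groups had been exposed to lentivirus and selected with puromycin, and the labels name 1 Jarid1b construct and 1 cell line. The NPC protocol they cite aggregates ESC and treats them with retinoic acid. Whether the 3 arrays of a group came from separate cultures is not stated in the labels; the p-values below therefore reflect array-to-array spread that could be technical.

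Hox genes encode homeodomain transcription factors that set position along the head-to-tail axis. Within a cluster the genes lie in the order of their paralogue numbers. Low-numbered genes are switched on first and reach into the hindbrain, and high-numbered genes come on later and stay towards the tail, an order called colinearity. In ESC the clusters are held silent under Polycomb marks, and retinoic acid is a classical inducer of the low-numbered genes through retinoic acid receptors bound in and near the clusters.

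The promoter windows of 6 genes of clusters A and D are shown first, because the main pattern in the data is a break within each cluster and these genes lie before and after it. Each window holds the 250 bases before the annotated start in RefSeq's GRCm38.p6 annotation, read 5′ to 3′ on the gene's own strand. Hoxa2 (chr6:52164832-52165081, minus strand) had the largest measured rise of the members. Hoxa7 (chr6:52218574-52218823, minus strand) and Hoxa9 (chr6:52227371-52227620, minus strand) are neighbours in cluster A, of which the first rose. Hoxd8 (chr2:74704365-74704614, plus strand) and Hoxd9 (chr2:74697513-74697762, plus strand) are neighbours among the Hox genes of cluster D, again with a rise in the first. Hoxd13 (chr2:74667975-74668224, plus strand), at the end of cluster D, fell. Capitals mark matches on either strand to 5 motifs: the retinoic acid receptor motif (AGGTCA or AGTTCA), the joint Hox and Pbx motif (TGATNNAT), the Cdx motif (TTTATG), the TATA box (TATAAA) and the CCAAT box (CCAAT). Matches that overlap were all kept, and the 2 TATA box matches in the Hoxd13 window overlap.
Hoxa2: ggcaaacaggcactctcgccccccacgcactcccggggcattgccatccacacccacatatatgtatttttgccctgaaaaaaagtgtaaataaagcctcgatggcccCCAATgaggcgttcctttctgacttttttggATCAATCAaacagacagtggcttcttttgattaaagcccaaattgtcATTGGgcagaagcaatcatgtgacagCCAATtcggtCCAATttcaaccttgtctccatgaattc
Hoxa7: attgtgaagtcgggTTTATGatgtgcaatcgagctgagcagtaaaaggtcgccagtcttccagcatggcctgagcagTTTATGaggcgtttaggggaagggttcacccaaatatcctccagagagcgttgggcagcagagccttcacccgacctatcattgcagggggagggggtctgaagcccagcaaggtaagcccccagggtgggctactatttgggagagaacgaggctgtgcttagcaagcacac
Hoxa9: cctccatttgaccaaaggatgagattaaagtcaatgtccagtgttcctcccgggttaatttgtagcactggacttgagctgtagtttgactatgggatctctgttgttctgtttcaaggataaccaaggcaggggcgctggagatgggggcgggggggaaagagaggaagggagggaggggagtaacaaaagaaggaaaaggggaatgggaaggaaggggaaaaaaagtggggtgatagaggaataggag
Hoxd8: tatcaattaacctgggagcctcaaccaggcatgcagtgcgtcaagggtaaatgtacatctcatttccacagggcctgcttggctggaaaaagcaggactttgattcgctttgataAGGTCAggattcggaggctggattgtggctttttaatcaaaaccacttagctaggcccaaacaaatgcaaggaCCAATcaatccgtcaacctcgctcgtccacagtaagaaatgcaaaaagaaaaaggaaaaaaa
Hoxd9: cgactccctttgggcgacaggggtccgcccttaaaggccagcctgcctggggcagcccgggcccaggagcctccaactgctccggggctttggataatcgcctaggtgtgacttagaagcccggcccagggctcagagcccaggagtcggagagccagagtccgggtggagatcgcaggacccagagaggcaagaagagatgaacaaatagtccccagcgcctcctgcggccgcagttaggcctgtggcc
Hoxd13: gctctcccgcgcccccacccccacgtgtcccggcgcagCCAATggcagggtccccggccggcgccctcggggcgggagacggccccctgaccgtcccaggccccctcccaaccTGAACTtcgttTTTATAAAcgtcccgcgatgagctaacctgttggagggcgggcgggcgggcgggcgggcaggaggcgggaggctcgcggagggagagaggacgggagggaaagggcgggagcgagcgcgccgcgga

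The Hoxa2 window held 4 CCAAT boxes and 1 Hox and Pbx match, the Hoxa7 window 2 Cdx matches, and the Hoxd8 window 1 retinoic acid receptor motif and 1 CCAAT box. Neither the Hoxa9 window nor the Hoxd9 window held any of these letters. The Hoxd13 window held 1 retinoic acid receptor motif, 2 TATA box matches and 1 CCAAT box. The RefSeq table had windows for 22 of the 38 members, 24 windows in all because Hoxa10 and Hoxd11 had 2 starts each. The retinoic acid receptor motif was present in 7 of these 24 windows, against 24.2% of 32841 windows of all genes. The Hox and Pbx motif was present in 4 (all windows 7.7%), the Cdx motif in 5 (10.8%), the TATA box in 4 (12.4%) and the CCAAT box in 14 (33.9%). The median number of CG dinucleotides was 12.5 in the members' windows and 6 in all windows. These counts describe letters in a short stretch before the start and say nothing of whether a factor bound there.

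The labelled states were checked against markers. At an adjusted p under 0.05 all 10 ESC markers were lower and all 10 neural progenitor markers higher in control NPC than in control ESC. Also higher in the NPC were 9 of 10 neuron, 7 of 9 neural crest, 8 of 10 endothelial and 8 of 10 fibroblast markers. So were 5 of 10 endoderm and 4 of 9 mesoderm markers. Lower were 1 neuron, 2 neural crest, 2 endothelial, 1 fibroblast and 1 mesoderm marker. Among all genes 23.5% were higher and 25.1% lower. In these bulk samples a change in the share of a cell type and a change of RNA per cell cannot be told apart, and the part of those other cell types in the Hox levels was not tested. Kdm5b itself was lower with the Jarid1b shRNA, with log2 changes of -1.73 ± 0.11 (SE) in ESC and -0.76 ± 0.11 in NPC. Arrays of a group correlated at 0.992 to 0.997 over the 18784 named genes. Values are log2 levels after RMA, and since probe sets differ in brightness only differences of the same gene are compared. As a rough floor, 95% of 1068 olfactory receptor genes lay below 6.28 in control ESC and below 6.24 in control NPC. By that measure 21 of the 38 members were above the floor in control ESC and 29 in control NPC. Of the 22 members of groups 1 to 8, 12 were above it in control ESC and 22 in control NPC, so some rises start from a level that cannot be told from background.

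From control ESC to control NPC the low-numbered Hox genes rose together and the high-numbered ones, apart from Hoxb9, did not. Of the 38 members 23 rose and 6 fell at an adjusted p under 0.05 (limma, adjusted over all 18784 genes), while 9 did not pass. Among all genes 48.6% passed, 23.5% higher and 25.1% lower in the NPC. The median log2 change was 1.60 over the members and -0.04 over all genes. All 7 anterior members rose, with a median of 3.43, and all 15 central members rose, with a median of 2.73. Of the 16 posterior members 1 rose and 6 fell, and their median was -0.08.

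**Figure D1:**
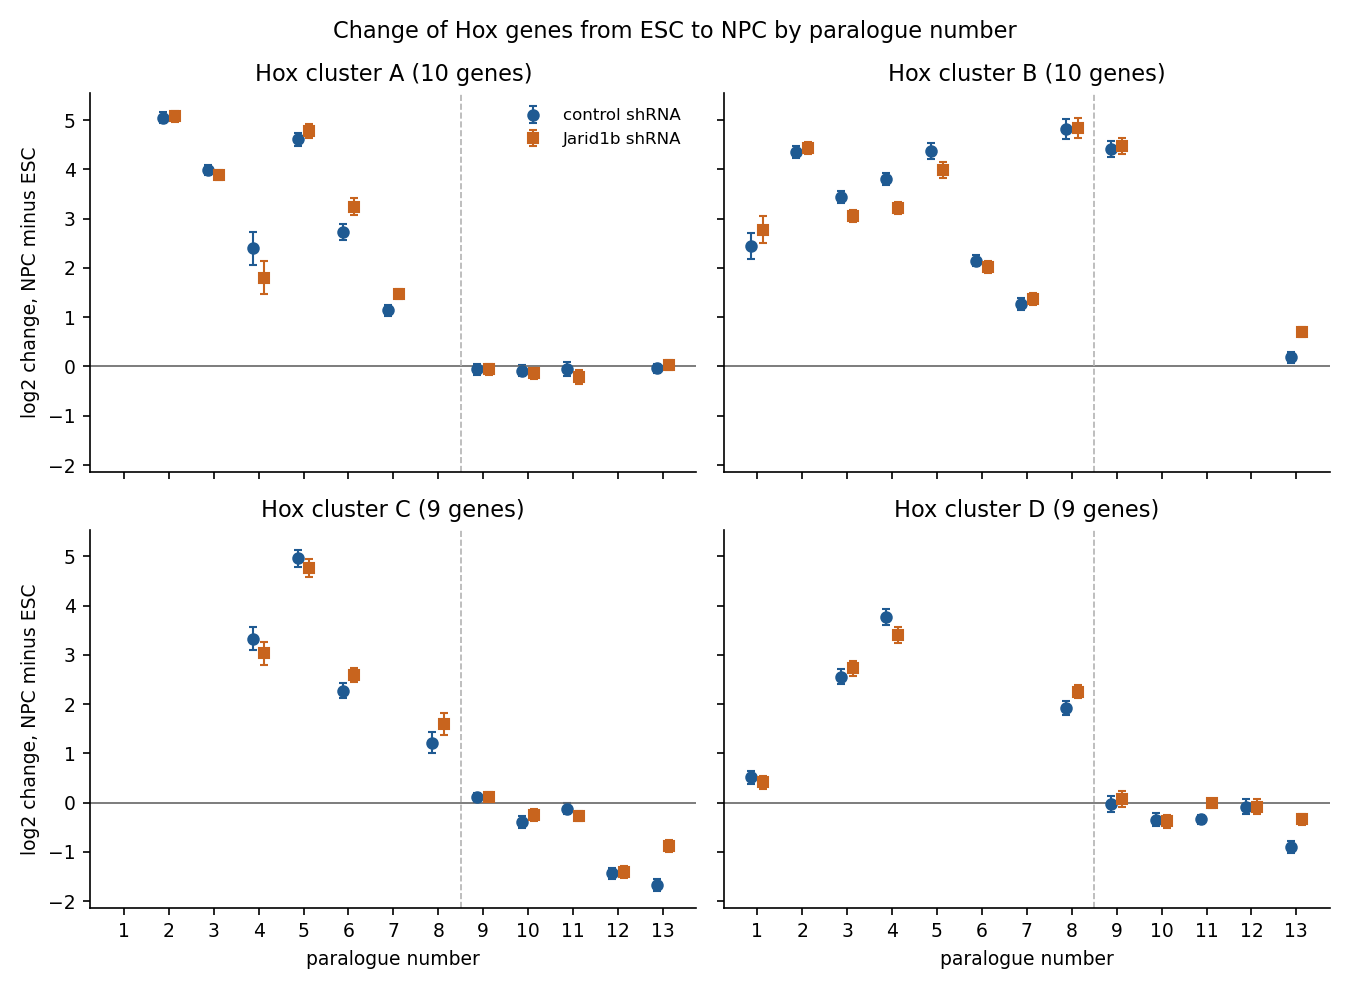
Change from ESC to NPC (log2, vertical axis) of each Hox gene against its paralogue number, in 1 panel per cluster, for control shRNA (circles) and Jarid1b shRNA (squares); bars are standard errors of the fit on 3 arrays per group, and the dashed line separates groups 8 and 9. In clusters A, C and D the changes lie above 0 left of the line and near or below 0 right of it, while in cluster B the control values are 4.41 for Hoxb9, which passed the test, and 0.18 for Hoxb13, which did not.

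The anterior genes pattern the hindbrain and the cranial nerves. Hoxa2, which specifies the second rhombomere and the second branchial arch, measured 5.89, 5.54 and 5.76 on the control ESC arrays and 10.87, 10.74 and 10.73 on the control NPC arrays. Its rise of 5.05 ± 0.11 (SE, adjusted p = 6.6e-12) was the largest measured among the 38, from an ESC level below the floor, so its true size is not fixed by these values. Hoxb2, also a hindbrain gene, rose by 4.35 ± 0.13, Hoxa3 by 3.98 ± 0.10 and Hoxb3 by 3.43 ± 0.12. Hoxd3 rose by 2.56 ± 0.15.

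The changes of group 1 were the smallest of the anterior class. Hoxb1, the marker of rhombomere 4, measured 7.74, 7.25 and 7.58 in control ESC and 9.48, 10.22 and 10.19 in control NPC, a rise of 2.44 ± 0.27 (adjusted p = 4.3e-06). Hoxd1 measured 6.71, 6.10 and 6.43 in control ESC and 6.95, 6.73 and 7.10 in control NPC. The groups stayed just apart for Hoxd1, whose rise of 0.51 ± 0.14 (adjusted p = 0.0072) was the smallest among groups 1 to 8. Differences between genes were not tested.

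The central genes specify the lower hindbrain and the cervical and brachial spinal cord. Hoxc5 measured 6.34, 6.01 and 5.90 in control ESC and 11.02, 10.78 and 11.32 in control NPC, a rise of 4.96 ± 0.17. Hoxb8 measured 6.28, 6.30 and 6.29 and then 11.44, 10.72 and 11.16, a rise of 4.81 ± 0.21. Hoxa5, the third large rise of the class, went up by 4.61 ± 0.14. For these 3 genes every NPC array lay more than 4 log2 units above every ESC array. Hoxb5 rose by 4.37 ± 0.16, Hoxb4 by 3.796 ± 0.12, Hoxd4 by 3.76 ± 0.16 and Hoxc4 by 3.33 ± 0.23.

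Groups 6 and 7 had smaller changes than group 5 in clusters A, B and C. Hoxa6 rose by 2.73 ± 0.17, Hoxc6 by 2.27 ± 0.15 and Hoxb6 by 2.15 ± 0.12. Hoxb7 rose by 1.27 ± 0.11 and Hoxa7 by 1.14 ± 0.11. Group 8 differed between clusters: next to the 4.81 of Hoxb8, Hoxd8 rose by 1.92 ± 0.14 and Hoxc8 by 1.22 ± 0.22 (adjusted p = 0.00036). The Hoxc8 arrays were the least even of the group, at 7.24, 8.06 and 8.04 in control NPC.

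The break between rising and non-rising genes fell between Hox genes with no other Hox gene between them. In cluster A, Hoxa7 measured 7.86, 7.61 and 7.79 in control ESC and 8.87, 8.72 and 9.08 in control NPC. Hoxa9, the next gene, measured 6.38, 6.19 and 5.997 and then 6.18, 6.27 and 5.95, with a change of -0.06 ± 0.11 (adjusted p = 0.70). The groups did not overlap for Hoxa7 and overlapped for Hoxa9. In cluster D, Hoxd8 measured 6.06, 5.66 and 6.02 in control ESC and 7.61, 7.79 and 8.11 in control NPC. Hoxd9 measured 7.18, 6.31 and 6.73 and then 6.67, 6.57 and 6.90, with a change of -0.03 ± 0.17 (adjusted p = 0.91). In cluster C the step lay between Hoxc8 and Hoxc9, whose change was 0.11 ± 0.09 (adjusted p = 0.35).

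Cluster B broke later. Hoxb9, a gene of the thoracic cord, measured 7.78, 7.47 and 7.53 in control ESC and 12.16, 11.68 and 12.16 in control NPC, a rise of 4.41 ± 0.16 (21.3-fold, adjusted p = 1.5e-10). It was the only one of the 4 group 9 genes to pass the test in that comparison. The next Hox gene of the cluster, Hoxb13, which lies far from the others and is known from the tail bud and the prostate, changed by 0.18 ± 0.10 (adjusted p = 0.17). By cluster, 6 of 10 genes rose in A, 9 of 10 in B, 4 of 9 in C and 4 of 9 in D.

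The 6 members that fell all belong to groups 10 to 13 of clusters C and D. Hoxc13, a gene of hair follicle and nail, had the largest measured fall: it was at 7.87, 7.60 and 7.93 in control ESC and 6.14, 5.91 and 6.35 in control NPC, a log2 change of -1.66 ± 0.12 (adjusted p = 9.6e-08). Its mean in control NPC, like that of Hoxd13, was below the floor, so the sizes of these falls are not fixed by the values. Hoxc12 measured 8.16, 7.79 and 8.06 and then 6.64, 6.56 and 6.51, a change of -1.44 ± 0.12 (adjusted p = 3.3e-07). Hoxd13, a gene of the digits and the hindgut, measured 6.54, 6.83 and 7.03 and then 5.79, 5.89 and 6.02, a change of -0.90 ± 0.12 (adjusted p = 2e-05). No NPC array of these genes reached the lowest ESC array.

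The other falls were small, and the mean levels of Hoxc10 and Hoxd10 were below the floor in all 4 groups. Hoxc10 changed by -0.39 ± 0.12, Hoxd10 by -0.34 ± 0.13 and Hoxd11 by -0.33 ± 0.09, with adjusted p of 0.0199, 0.0379 and 0.0082. The Hoxd10 call was lost without control ESC replicate 1 or 2 or control NPC replicate 1 or 3, with adjusted p between 0.0595 and 0.183, and the Hoxc10 call without control ESC replicate 1 (0.0912) or control NPC replicate 3 (0.0828). None of the 4 posterior genes of cluster A passed in either direction, Hoxa13 among them with a change of -0.04 ± 0.09.

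**Figure D2:**
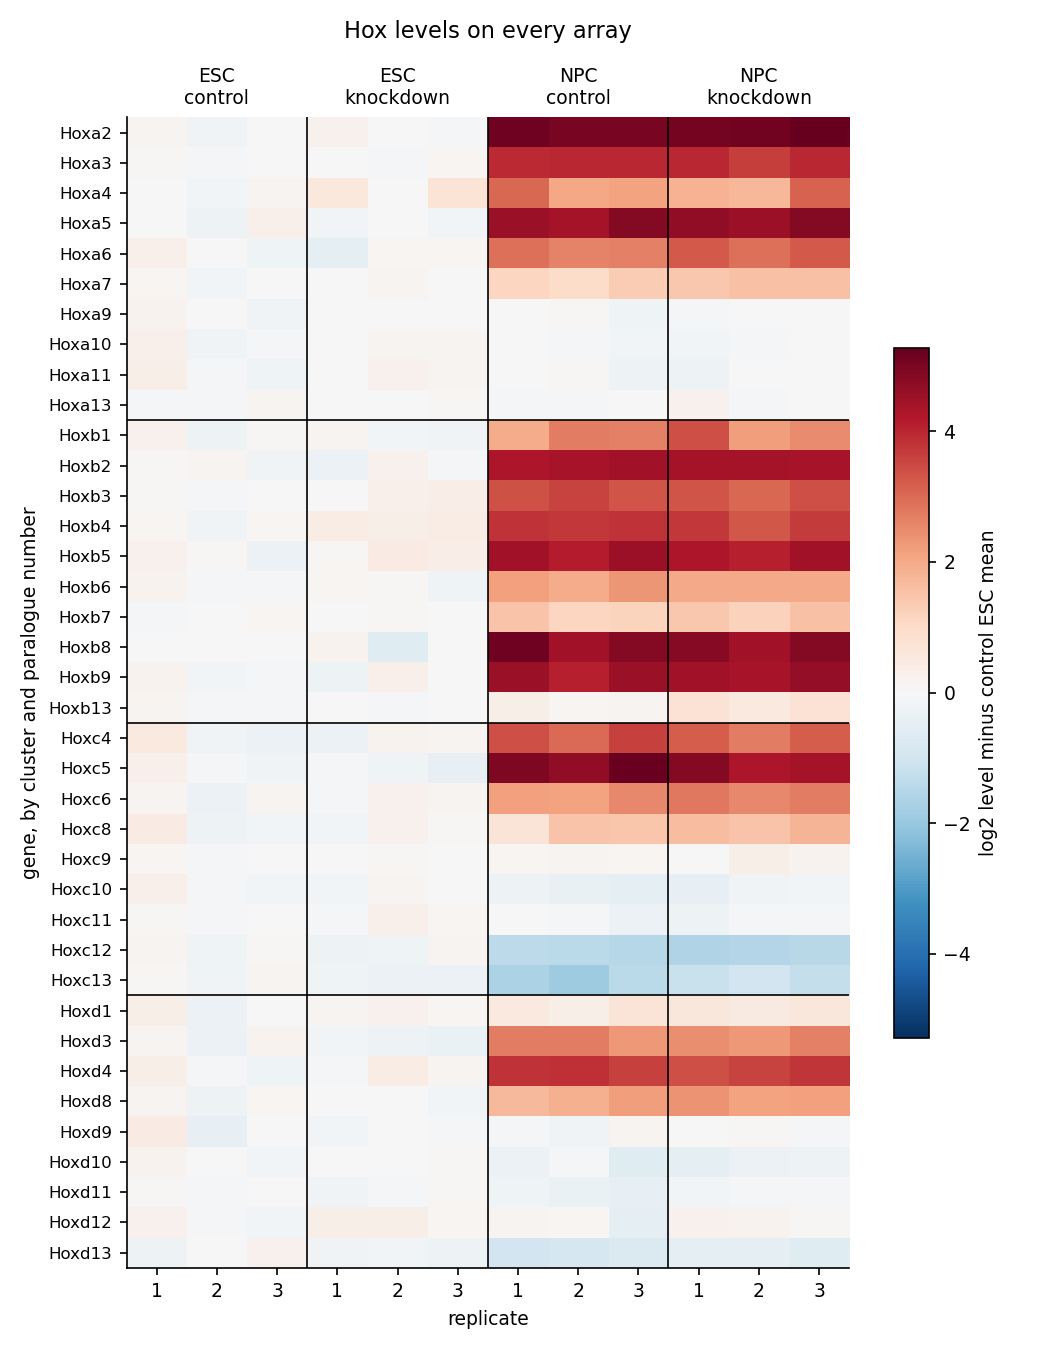
Level of the 38 Hox genes (rows, by cluster and paralogue number) on each of the 12 arrays (columns, 3 per group), as the log2 level minus that gene's mean in control ESC; red is higher and blue lower. The 6 NPC columns are pale to deep red for groups 1 to 8 in every cluster and for Hoxb9, and blue for Hoxc12, Hoxc13 and Hoxd13.

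Arrays of a group varied most for Hoxa4 and Hoxb1. Hoxa4 measured 10.44, 9.43 and 9.50 in control NPC and 9.23, 9.16 and 10.50 in knockdown NPC, so 1 array in each group stood about 1 log2 unit above the others. Its rise of 2.40 ± 0.34 in control cells still passed (adjusted p = 4.3e-05). Hoxb1 in knockdown NPC measured 10.92, 9.75 and 10.04.

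The same change was measured again in cells with the Jarid1b shRNA, on 6 other arrays. There 24 members rose and 4 fell, against 23.8% of all genes higher and 25.0% lower, and 48.8% called in all. All 22 members of groups 1 to 8 rose here too, with a median of 3.04 beside 3.03 in the control cells. Over the 38 members the changes in control and in knockdown cells, which share no array, had Pearson's r of 0.989 and Spearman's rho of 0.989, beside 0.934 and 0.857 over all genes. These are correlations across genes, which are not independent replicates.

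The largest rises were of like size in both. Hoxa2 rose by 5.07 ± 0.11 in knockdown cells, Hoxb8 by 4.84 ± 0.21, Hoxa5 by 4.77 ± 0.14, Hoxc5 by 4.76 ± 0.17 and Hoxb9 by 4.47 ± 0.16. The 4 that fell were Hoxc12, with a change of -1.41 ± 0.12, Hoxc13 with -0.87 ± 0.12, Hoxd10 with -0.38 ± 0.13 and Hoxd13 with -0.34 ± 0.12. The additional rise was that of Hoxb13, by 0.69 ± 0.10 (adjusted p = 7.8e-05). Hoxd1 rose by 0.41 ± 0.14 (adjusted p = 0.0252), and its call was lost without knockdown ESC replicate 1 or 3 or knockdown NPC replicate 1 or 3, with adjusted p between 0.0648 and 0.0744. The calls of Hoxd10 and Hoxd13 were likewise lost in some of these settings, at adjusted p of up to 0.0958 and 0.0942. With quantile normalization the Hoxd13 change was -0.25 with an adjusted p of 0.169.

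In ESC the Jarid1b shRNA moved no Hox gene past the test. The count was 0 of 38, against 5.21% of all genes (limma, adjusted over all genes), and 2 members had an unadjusted p under 0.05, against 19.2% of all genes. Standard errors of these differences lay between 0.09 and 0.34, and the differences themselves between -0.28 and 0.44, the highest being Hoxa4 at 0.44 ± 0.34. The control and knockdown arrays did not overlap for 2 members, while this held for 24.2% of all genes.

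Those 2 were Hoxb4 and Hoxc13. Hoxb4, a regulator of blood stem cell growth as well as of the hindbrain, measured 5.68, 5.40 and 5.70 in control ESC and 5.98, 5.91 and 5.98 in knockdown ESC. The difference was 0.36 ± 0.12 (adjusted p = 0.107). Both ESC means of Hoxb4, 5.59 and 5.95, were below the floor of 6.28 in control and 6.40 in knockdown ESC. The size of its difference is therefore not fixed by the values. Hoxc13 measured 7.87, 7.60 and 7.93 in control ESC and 7.56, 7.50 and 7.48 in knockdown ESC, a difference of -0.28 ± 0.12 (adjusted p = 0.217). Next in order of p were Hoxb5, at 0.29 ± 0.16, and Hoxd13, at -0.21 ± 0.12, with adjusted p of 0.353 and 0.367. The ESC means of Hoxb5 were below the floor as well. With array weights in the fit Hoxd13 passed in ESC, at -0.33 with an adjusted p of 0.0435.

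In NPC 1 member of 38 passed, against 1.03% of all genes. It was Hoxb13, which measured 7.32, 7.09 and 7.17 in control NPC and 7.79, 7.51 and 7.77 in knockdown NPC. All 3 knockdown arrays lay above the 3 control arrays, by 0.50 ± 0.10 on average (1.41-fold, adjusted p = 0.0405). In ESC the same gene measured 7.17, 6.93 and 6.93 with the control shRNA and 7.02, 6.97 and 7.01 with the Jarid1b shRNA, so the groups overlapped there. The NPC call was kept without control replicate 1 or knockdown replicate 2. It was lost without control replicate 2 or 3 or knockdown replicate 1 or 3, with adjusted p between 0.112 and 0.193, and the difference then stayed between 0.45 and 0.49.

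**Figure D3:**
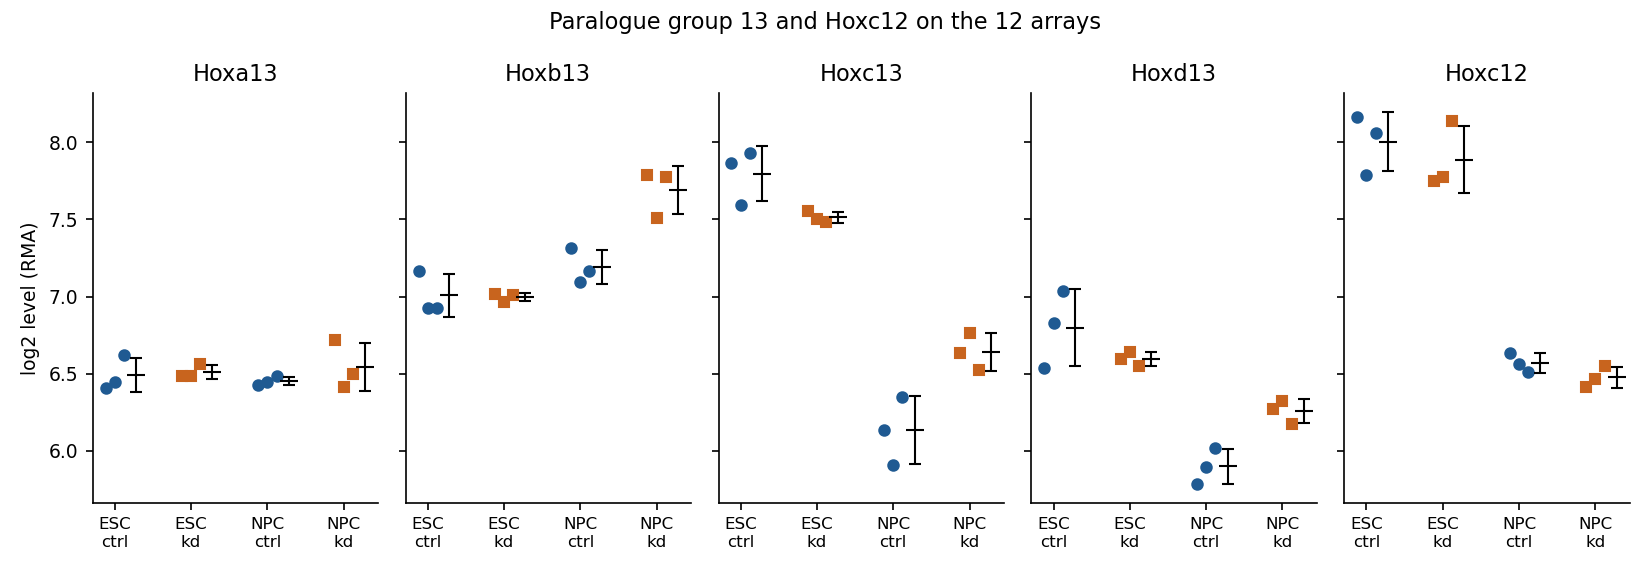
Log2 level of the 4 paralogue group 13 genes and of Hoxc12 on the 12 arrays (circles control shRNA, squares Jarid1b shRNA), with the mean and SD of the 3 arrays to the right of each group. In NPC the knockdown arrays of Hoxb13, Hoxc13 and Hoxd13 lie above the control arrays, those of Hoxa13 overlap them and those of Hoxc12 do not lie above them as a group.

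Next in order of p among the posterior genes in NPC were 2 more genes of group 13. Hoxc13 measured 6.14, 5.91 and 6.35 in control NPC and 6.64, 6.77 and 6.52 in knockdown NPC, a difference of 0.51 ± 0.12 (adjusted p = 0.0746). Hoxd13 measured 5.79, 5.89 and 6.02 and then 6.27, 6.33 and 6.17, a difference of 0.36 ± 0.12 (adjusted p = 0.235). The arrays did not overlap for either gene. Hoxa13 differed by 0.09 ± 0.09. All 4 group 13 genes were thus on the higher side in knockdown NPC, as were 9603 of all 18784 genes. Their median difference was 0.43, and 1 of them passed. The control NPC means of Hoxc13 and Hoxd13 were below the floor, so the sizes of their differences are not fixed by the values.

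Other genes of the same ends of clusters C and D gave mixed values. Hoxd12, the direct neighbour of Hoxd13, differed by 0.24 ± 0.15 (adjusted p = 0.753), with mean levels below the floor in all 4 groups. Hoxd11 measured 7.15, 7.03 and 6.94 in control NPC and 7.22, 7.30 and 7.31 in knockdown NPC, a difference of 0.24 ± 0.09 (adjusted p = 0.391). Hoxc12, which lies beside Hoxc13 and also fell during differentiation, differed by -0.09 ± 0.12 (adjusted p = 0.938).

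For Hoxc13 the difference between the NPC and the ESC effect of the shRNA passed as well. Its knockdown arrays were lower than the control arrays in ESC and higher in NPC, and the difference of the effects was 0.79 ± 0.17 (adjusted p = 0.0437). It was the 1 member of 38 to pass that test, against 1.42% of all genes. Hoxd13, which passed with array weights (0.70, adjusted p = 0.0176) and without control ESC replicate 1 (0.695, 0.0219), had 0.56 ± 0.16 and Hoxb13 0.51 ± 0.15, with adjusted p of 0.115 and 0.111. Hoxb4, whose ESC means were below the floor, had the opposite sign, at -0.58 ± 0.17 (adjusted p = 0.12). The Hoxc13 call was kept when control ESC replicate 2 or control NPC replicate 3 was left out and lost without any one of the other 10 arrays, with the difference between 0.68 and 0.90 and adjusted p between 0.0307 and 0.129 over the 12. It was also lost with the replicate number as a block (adjusted p = 0.0585) and with quantile normalization (0.0561).

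ESC marker levels also differed between control and knockdown NPC. Their relation to the Hox differences from array to array was not tested. The mean level of these markers was 6.56 to 7.07 on the control NPC arrays and 7.09 to 7.83 on the knockdown NPC arrays. In ESC it was 11.78 to 11.96. Of the 10 markers 3 were called higher in knockdown NPC: Utf1 by 1.44, Tdgf1 by 1.02 and Esrrb by 0.64. The largest rise among the 10, at 2.03, was not called. Among all genes 1.03% were called in that contrast, and 0.82% were called higher. Endothelial markers went the other way, at 7.15 to 7.94 in control NPC and 6.42 to 6.77 in knockdown NPC, with 4 of 10 called lower, as was 1 of 10 fibroblast markers. Hoxc13, Hoxd13 and Hoxc12 have higher levels in ESC than in NPC, and of these Hoxc12 was not higher in knockdown NPC. Hoxb13 had a mean of 7.01 in control ESC and 7.69 in knockdown NPC. The part of remaining ESC, or of the other cell types, in these differences was not tested.

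Across the whole set the arrays of control and knockdown NPC did not overlap for 7 members, while 14.2% of all genes had that. All of the 7 were higher with the Jarid1b shRNA, where 8.30% of all genes had that direction. They were Hoxa6, Hoxa7, Hoxb13, Hoxc8, Hoxc13, Hoxd11 and Hoxd13. At an unadjusted p under 0.05 there were 8 members of 38, against 9.52% of all genes.

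Along the clusters the small NPC differences had a pattern by paralogue number that was noticed after the values were seen. In groups 3 to 5, 9 of 10 members were lower in knockdown NPC, with a median of -0.17, and in groups 6 to 8, 6 of 8 were higher, with a median of 0.33. Among all 18784 genes 9172 were lower and 9603 higher. None of these 18 members passed the test. Hoxc5 measured 11.02, 10.78 and 11.32 in control NPC and 10.93, 10.34 and 10.48 in knockdown NPC, a difference of -0.46 ± 0.17 (adjusted p = 0.362). The arrays overlapped for Hoxc5, as for Hoxc4 at -0.30 ± 0.23, Hoxb4 at -0.22 ± 0.12 and Hoxd4 at -0.20 ± 0.16.

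In groups 6 to 8 the values ran the other way outside cluster B. Within cluster B they were mixed, with Hoxb6 at -0.15, Hoxb7 at 0.12 and Hoxb8 at -0.12. Hoxa7 measured 8.87, 8.72 and 9.08 in control NPC and 9.18, 9.32 and 9.29 in knockdown NPC, a difference of 0.37 ± 0.11 (adjusted p = 0.144). Hoxc6 measured 8.08, 8.04 and 8.47 and then 8.71, 8.44 and 8.63, a difference of 0.40 ± 0.15 (adjusted p = 0.35). Hoxa6 differed by 0.40 ± 0.17, Hoxc8 by 0.42 ± 0.22 and Hoxd8 by 0.29 ± 0.14. The mean of groups 6 to 8 minus the mean of groups 3 to 5 was -1.30, -1.21 and -1.09 on the control NPC arrays and -0.79, -0.71 and -0.94 on the knockdown NPC arrays. The grouping came from these same arrays, so their separation in that summary was favoured by the choice and is no support for the pattern. It is given without a test. Over all 38 members the NPC difference and the paralogue number had Pearson's r of 0.397 and Spearman's rho of 0.389, across genes that share the same 6 arrays.

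**Figure D4:**
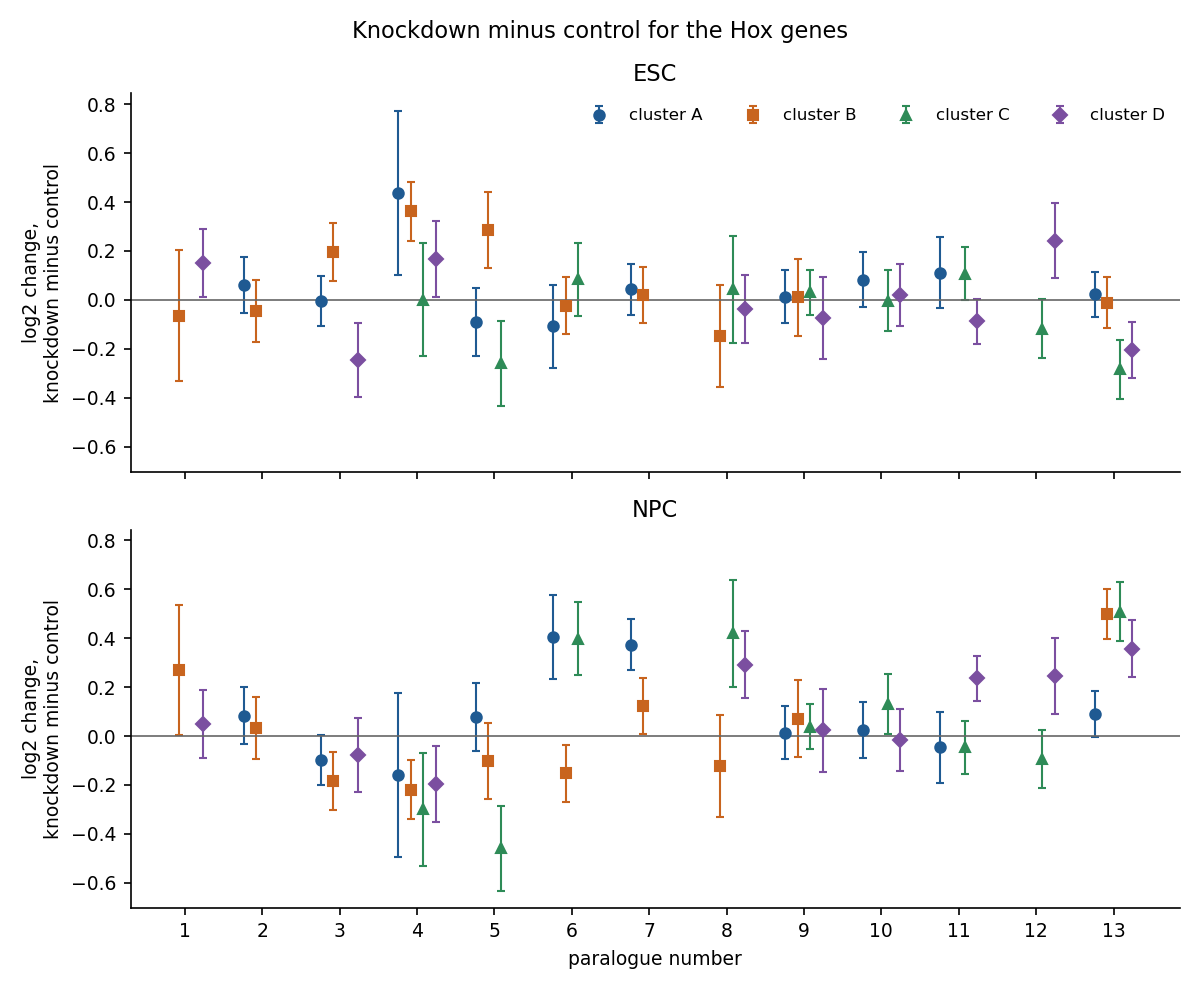
Jarid1b shRNA minus control shRNA (log2, vertical axis) of the 38 Hox genes against paralogue number, in ESC (upper panel) and NPC (lower panel), by cluster; bars are standard errors of the fit on 3 arrays per group. In ESC no gene passed the test, and in NPC Hoxb13 did, at 0.50. In NPC 9 of the 10 genes of groups 3 to 5, a grouping made after the values were seen, lie below 0.

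Genes that act with or on the Hox clusters were read from lists. For the counts below, 23.5% of all genes rose and 25.1% fell from control ESC to control NPC. For the Jarid1b shRNA 5.21% of all genes were called in ESC and 1.03% in NPC. The TALE homeodomain cofactors, which bind DNA together with Hox proteins, rose as a group in control cells: 8 of 8 measured passed, among them Meis2 by 4.02, Meis1 by 3.99 ± 0.13, Pknox2 by 2.94 ± 0.20 and Meis3 by 2.07 ± 0.10. None of the 8 passed for the Jarid1b shRNA in NPC, and in ESC Meis2 alone did, with a change of -1.22 ± 0.31 (adjusted p = 0.0385).

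Of 17 retinoic acid pathway genes 11 rose and 2 fell from control ESC to control NPC. Rarb, a receptor gene that retinoic acid itself induces, rose by 5.35 ± 0.20, the binding protein gene Crabp2 by 4.71 ± 0.14 and the retinol dehydrogenase gene Rdh10 by 2.18 ± 0.10, while the receptor gene Rarg changed by -3.00 ± 0.19. In the knockdown contrasts 1 of the 17 passed in ESC, Crabp1 at 0.74 ± 0.16, and none in NPC.

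Among 10 factors known to act upstream of Hox genes in the trunk and hindbrain 2 rose and 4 fell (all genes 23.5% and 25.1%). Gdf11, a signal that promotes posterior Hox genes in the embryo, rose by 2.89 ± 0.17 and Egr2, the hindbrain regulator also called Krox20, by 1.23 ± 0.19. Nr6a1 changed by -0.62 ± 0.12. Tbx6, a factor of the paraxial mesoderm, was higher in knockdown ESC by 0.43 ± 0.10 (adjusted p = 0.0237). Cdx2, a direct activator of central Hox genes, was lower in knockdown ESC by a log2 change of -0.69 ± 0.16 (adjusted p = 0.0247), where no Hox gene passed.

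Anterior brain factors mark regions in front of the Hox territory. Of 15 measured 3 rose and 5 fell, beside 23.5% and 25.1% of all genes. Otx2, the forebrain and midbrain factor that ESC and epiblast also express, changed by -4.90 ± 0.19. En2, of the midbrain and cerebellum, changed by -1.32 ± 0.19, while Lhx5 rose by 2.26 ± 0.17 and Emx2 by 1.39 ± 0.23.

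The genes that flank the clusters on the chromosome did not follow them. Of 18 measured 6 rose and 6 fell (all genes 23.5% and 25.1%), with a median change of 0.06, beside 1.60 for the Hox genes. Skap2, next to cluster A, rose by 1.08 ± 0.11, and Snx10 and Hibadh, on either side of that region, changed by -1.65 ± 0.14 and -1.13 ± 0.08. Within cluster D the long non-coding RNA Hoxd3os1, which lies between Hoxd8 and Hoxd3, rose by 0.75 ± 0.13 (adjusted p = 0.0002).

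The Polycomb group, which keeps silent Hox genes repressed, and the Trithorax group, which opposes it, held genes that moved in both directions. Of 24 Polycomb genes 9 rose and 12 fell in control cells, with Bmi1 up by 1.60 ± 0.10 and Mtf2 and Phc1 at -1.47 ± 0.09 and -1.57 ± 0.10. Of 19 Trithorax and H3K4 methylation genes 2 rose and 7 fell, Wdr5 among them at -1.10 ± 0.10. In ESC 2 of the 24 Polycomb genes passed for the Jarid1b shRNA, Kdm2b at -0.73 ± 0.15 and Phc3 at 0.48 ± 0.13, and 1 of the 19 others, Kdm1b at -0.47 ± 0.10. In NPC no gene of either list passed.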

How the data were processed

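The 12 arrays, 3 per group, are Affymetrix MoGene-1.0-ST chips that read most of a transcript. The values used are log2 levels as the authors deposited them. Tools named per the submitters' processing notes are affy, RMA and limma; no versions are named there. By RMA's method background is corrected, arrays are brought to the same distribution and probes are summarized, so low differences are compressed. The deposited values still differed between arrays. Their medians ran from 7.696 (control ESC replicate 2) to 7.792 (knockdown NPC replicate 1). Lower quartiles ran from 5.844 (control NPC replicate 3) to 6.108 (control ESC replicate 1). No genome build of the probe sets is named, and the coordinates printed belong to RefSeq's promoter table (GRCm38.p6) alone. Precision is limited by the number of arrays.

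The platform annotation paired 18786 of the 21212 probe sets with 1 symbol and 6 with several, and did not list 2420. A gene was read from its probe set of highest mean (18784 genes). One group-means model for the arrays was fitted with limma 3.58.1 in R 4.3.3 (8 residual and 4.81 prior degrees of freedom) with 5 contrasts; adjustment by Benjamini-Hochberg covered the 18784 genes, and probe sets without a name helped to estimate the spread only. An adjusted p under 0.05 was called. The fit was tested on simulated data.

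The members and the gene lists were chosen with earlier results of these data known. Named were the members past the threshold in a knockdown contrast, the 10 largest rises and 3 largest falls in control cells, the 6 and 4 smallest p for the knockdown in NPC and ESC, the first and last gene of each cluster, and up to 4 genes per list; other members complete the description of their group and were chosen after their values were seen. Alternatives covered blocking on the replicate number, low values, scaling, priors, array weights, thresholds and leaving out each array. Control arrays with the same replicate number in ESC and NPC deviated together (correlations 0.266, 0.286 and 0.334). Only the alternatives with the replicate block treated them as pairs. The main fit, which gave the p-values printed unless another setting is named, held no pairing. The pairing is read from the data, not from the labels.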

Additional observations from a re-analysis of the deposited data

Results flagged for a closer look

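Hoxc13 is the 1 Hox gene whose response to the Jarid1b shRNA differed, in the fit of all 12 arrays, between the cell states by a test of the difference itself: the NPC effect minus the ESC effect was 0.79 on the log2 scale (adjusted p = 0.0437). In 2 other settings Hoxd13 passed: with array weights (0.70, adjusted p = 0.0176) and without control ESC replicate 1 (0.695, 0.0219), where Hoxc13 had an adjusted p of 0.0501. The 3 knockdown arrays of Hoxc13 lay below the 3 control arrays in ESC and above them in NPC. Groups of 3 arrays were not tested for outliers.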

How the results depend on the processing

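The change from ESC to NPC kept most of its calls: the count of called members stayed at 24 to 29 of 38 in control cells and 23 to 29 in knockdown cells, and without 1 array at 27 to 29 and 25 to 28. The calls that rest on the knockdown did not hold as well. In ESC the count went from 0 to 1 with array weights, and without 1 array it stayed at 0. In NPC it went from 1 to 0 with an intensity trend and robust prior, with only the arrays of the contrast, at a threshold of 0.01 and at a change of at least 2-fold, and was 0 to 1 without 1 array. The count for the difference of the effects went from 1 to 0 with the replicate block, with quantile normalization, at 0.01 and at 2-fold, to 2 with array weights, and was 0 to 1 without 1 array. The cause was not tested. Near-zero changes in control cells turned sign: Hoxd9 was 0.049 with array weights, 0.018 with quantile normalization and -0.24 to 0.19 without 1 array; Hoxa9 was 0.030, 0.0025 and -0.15 to 0.038 in the same settings; Hoxa13 was 0.028 with quantile normalization and -0.079 to 0.026 without 1 array. Over all genes the calls in ESC were 979, and 497 to 2886 over settings other than thresholds and left-out arrays; in NPC they were 194, and 29 to 219; for the difference they were 267, and 152 to 955. Without 1 array these ran from 193 to 1536, from 83 to 220 and from 35 to 546. Median centring moved the median change of all genes in knockdown cells from -0.07 to -0.12. The filter on low values kept 32 of 38 members and 14061 genes.

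With the replicate number as a block, which pairs the control arrays, 29 members were called between control ESC and NPC, also in a fit of those 6 arrays alone that was added after seeing the data, and 28 in knockdown cells, as without it. The block changed 1 call, that of Hoxc13 in the difference of the effects. Levels near the floor limit the sizes of changes: 7 of 16 posterior genes were above it in control NPC, and 12 of the 22 genes of groups 1 to 8 in control ESC.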
